A study of Mus musculus with 21 samples.

Results

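A set of 40 genes of the proximal tubule, a kidney epithelium, were followed in RNA from sorted kidney macrophages. They were chosen by symbol from a list of transporters, brush border proteins and metabolic enzymes of that epithelium, and all 40 were found among the 34236 gene symbols of the count table, of which 22525 had at least 1 count in some library. The study sorted F4/80+CD64+ macrophages from the kidneys of male C57BL/6J mice aged 24 weeks, either after a Sham operation or with renal artery stenosis (RAS), in which a cuff narrows the artery to the right kidney. It separated CD11chiMϕ and CD11cloMϕ, both described as monocyte-derived, from kidney-resident macrophages (KRM). CD11chiMϕ gave 3 Sham and 4 RAS libraries, CD11cloMϕ 3 Sham and 4 RAS libraries, and KRM 4 Sham and 3 RAS libraries, 21 in all. No genetic alteration was given for any group, and the study describes its groups by numbers of mice, but the labels tie no library to a mouse, so p-values measure the spread between libraries, part of which may be technical.

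The proximal tubule is the first stretch of the nephron after the glomerulus. Its cells take back filtered glucose, phosphate, amino acids and protein across a brush border, make glucose, and secrete organic anions into the urine. The early segments carry the glucose transporter Slc5a2, also known as SGLT2, the last straight segment carries the amino acid transporter Slc7a13, and the nuclear receptor Hnf4a drives much of the program in all of them. These are epithelial genes, and apart from Napsa, an aspartic protease, and a few enzymes with wide expression they are not used as markers of macrophages.

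The libraries held 6891149 to 18592396 counts and 14616 to 17719 counted genes. All 18 macrophage markers examined, among them Cd74, Lyz2 and Ctss, had counts, and none was at 0 in any library. Their presence does not tell the 3 populations apart, but levels differed. In Sham, Cd74 was at 18187 to 45161 CPM (counts per 1000000 counts of a library) in CD11chiMϕ. It was at 5024 to 8500 CPM in CD11cloMϕ Sham and 55431 to 76518 CPM in KRM Sham. In RAS, CD11chiMϕ (40176 to 62235 CPM) and KRM (37097 to 54938 CPM) overlapped for Cd74. The summed level of the 18 markers was 72089 and 75561 CPM in CD11chiMϕ Sham libraries 1 and 2, against 28999 CPM in Sham library 3. Mitochondrially encoded transcripts reached 143947 CPM in that library, against 10921 and 15046 CPM in the other Sham libraries of its group. KRM RAS libraries 2 and 3 also stood apart, with 36824 and 40797 CPM of mitochondrial transcripts and 60550 and 66664 CPM of macrophage markers, against 9547 and 89089 CPM in KRM RAS library 1. CD11chiMϕ RAS library 2 had 32544 CPM of mitochondrial transcripts, against 8248, 14091 and 14681 CPM in the other RAS libraries of its group. CD11cloMϕ and KRM Sham library 3 stood apart less on these measures, with 53369 and 87054 CPM of macrophage markers and 22089 and 14832 CPM of mitochondrial transcripts. CD11cloMϕ RAS library 3 had 92445 CPM of macrophage markers, against 62377 to 65989 CPM in the other RAS libraries of its group. Its Cd74 level was 43852 CPM, against 9077, 9198 and 19253 CPM in those libraries. Results that rest on the Sham libraries numbered 3 are given with and without them because of the members' own levels there, given below.

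The proximal tubule genes were present in every library, and their sum was far higher in the Sham libraries numbered 3. In CD11chiMϕ the 40 genes summed to 1939, 2095 and 64811 CPM in Sham libraries 1, 2 and 3, and to 3335, 3271, 1935 and 1743 CPM in RAS libraries 1 to 4. In CD11cloMϕ the sums were 1492, 1190 and 16845 CPM in the Sham libraries and 757, 944, 2137 and 2459 CPM in the RAS libraries. KRM gave 2281, 2123, 12350 and 2119 CPM in Sham libraries 1 to 4 and 5962, 4152 and 3672 CPM in RAS libraries 1 to 3. Within each population the Sham library numbered 3 stood above every Sham and RAS library, whereas among the KRM libraries the 3 RAS values lay between that library and the other 3 Sham values. Napsa, which is not particular to tubule cells, made up 74.7% of the sum in CD11cloMϕ RAS library 1, 57.4% in CD11chiMϕ RAS library 4 and 53.1% in CD11cloMϕ RAS library 2, against 0.492% in CD11chiMϕ Sham library 3. Without Napsa the sum in CD11cloMϕ RAS library 1 was 192 CPM, and the Sham libraries numbered 3 had 64492, 16151 and 12235 CPM. In sorted bulk samples more cells of a type and more RNA per cell cannot be told apart.

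**Figure D1:**
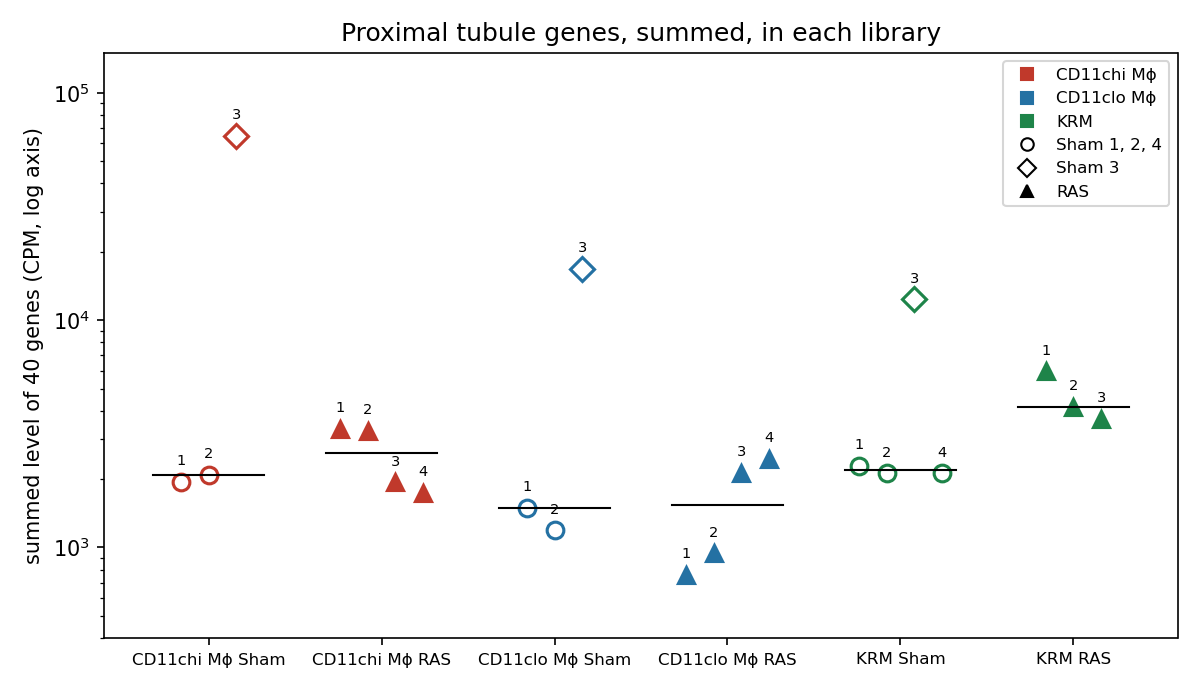
Summed level of the 40 proximal tubule genes, Napsa included (CPM, log axis) in each of the 21 libraries, by group, with the replicate number beside each point, the group median as a black line, and open diamonds for the Sham libraries numbered 3. These 3 libraries hold 64811, 16845 and 12350 CPM, and the remaining 18 lie between 757 and 5962 CPM.

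Counted gene by gene, nearly all members were highest in the Sham library numbered 3 of their population. This held for 39 of 40 genes among the CD11chiMϕ Sham libraries, where 35.2% of all genes with counts were highest in that library. It held for 40 of 40 in CD11cloMϕ, against 39.7% of all genes, and for 38 of 40 in KRM, against 34.5% of all genes. The median member was 46.2-fold above the mean of the other Sham libraries in CD11chiMϕ, 31.6-fold in CD11cloMϕ and 6.05-fold in KRM, where the median over all genes was 0.817, 0.984 and 1.05. Members more than 5-fold higher numbered 39, 37 and 29 in these populations, against 13.0%, 8.33% and 4.68% of all genes. A single library against 2 or 3 gives no test, and these libraries were singled out for this pattern, so the folds are a description. Other epithelial lists were high there too: 20 loop and distal nephron genes summed to 1982, 893 and 330 CPM in the CD11chiMϕ, CD11cloMϕ and KRM libraries numbered 3, against 8.05 to 23.0 CPM in the other Sham libraries, and their part in these folds was not tested.

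Napsa did not share this rise. It encodes napsin A, an aspartic protease of the endosomal and lysosomal compartment. Its level in the Sham library numbered 3 was 0.629 times that of the other Sham libraries in CD11chiMϕ, 1.08 times in CD11cloMϕ and 1.01 times in KRM. In KRM Ugt2b37 was the other member not highest in that library, at 1.53 times the mean of the other Sham libraries. Over all 21 libraries the highest value of a gene fell in CD11chiMϕ Sham library 3 for 34 members, in CD11cloMϕ Sham library 3 for 5, and in CD11chiMϕ RAS library 3 for Napsa alone.

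**Figure D2:**
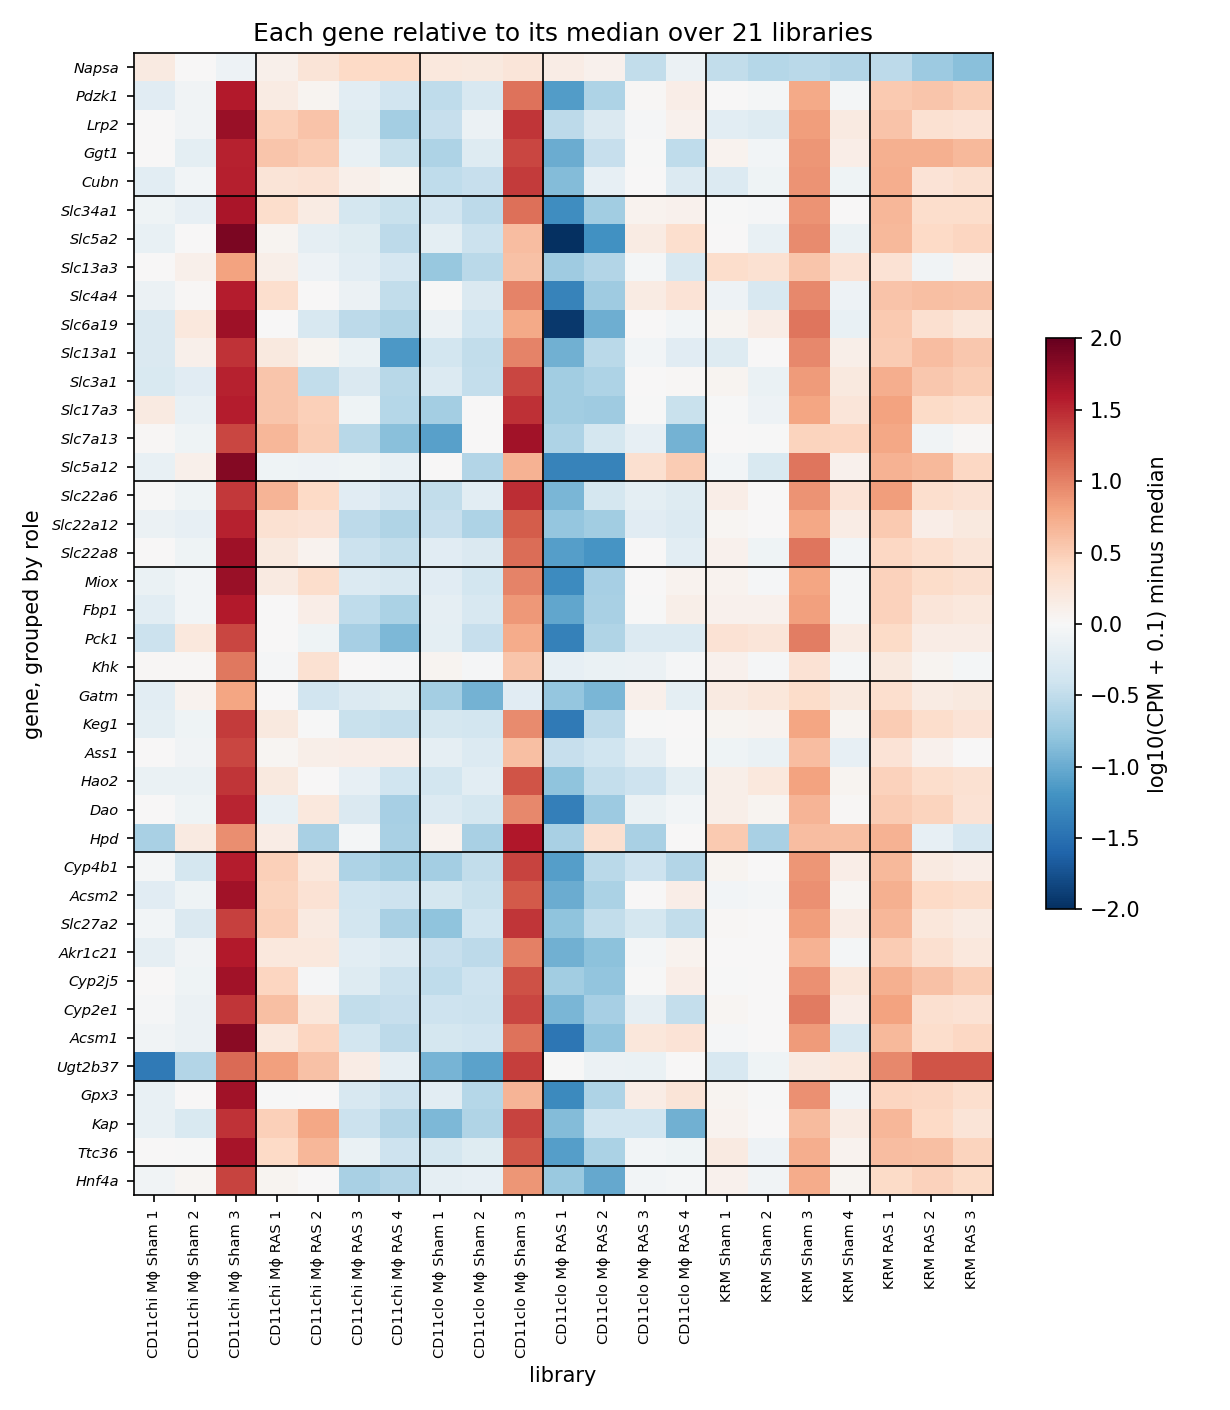
Heat map of the 40 genes (rows, ordered by role) in the 21 libraries (columns), coloured by log10(CPM + 0.1) minus the median of that gene over the libraries. The columns of the Sham libraries numbered 3 are high for nearly every gene, and the Napsa row is instead lowest in KRM.

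Among secreted products the highest level belonged to Gpx3, the plasma glutathione peroxidase that the proximal tubule releases into blood (chromosome 11, GRCm38, 54902453 to 54910377, plus strand). It had 488, 695 and 32832 CPM in the CD11chiMϕ Sham libraries and 671, 696, 338 and 260 CPM in the RAS libraries. In CD11cloMϕ Gpx3 had 425, 189 and 3280 CPM in Sham and 37.0, 168, 980 and 1262 CPM in RAS. In KRM it had 783, 686, 5781 and 581 CPM in Sham and 1889, 1798 and 1531 CPM in RAS. The KRM RAS values were all above Sham libraries 1, 2 and 4 and all below Sham library 3. Kap, the kidney androgen-regulated protein of male mouse tubules, had 63.8, 44.0 and 2518 CPM in CD11chiMϕ Sham and 271, 535, 33.8 and 23.1 CPM in CD11chiMϕ RAS. Its CD11cloMϕ values were 11.3, 22.4 and 2039 CPM in Sham and 12.4, 36.5, 36.7 and 9.63 CPM in RAS. KRM gave 107, 90.4, 393 and 131 CPM of Kap in Sham and 423, 228 and 165 CPM in RAS. Within CD11chiMϕ RAS, libraries 1 and 2 stood above libraries 3 and 4 for Kap, and KRM Sham and RAS overlapped through Sham library 3. Ttc36, a tetratricopeptide repeat protein, ranged from 0.321 to 238 CPM.

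Of the transporters, Slc34a1, the sodium-phosphate cotransporter of the brush border, had the highest counts. It had 93.2, 78.8 and 4920 CPM in the CD11chiMϕ Sham libraries and 252, 166, 50.4 and 40.4 CPM in RAS. In CD11cloMϕ it had 47.0, 34.3 and 1413 CPM in Sham and 6.41, 23.1, 134 and 139 CPM in RAS. In KRM it had 111, 107, 910 and 113 CPM in Sham and 527, 258 and 251 CPM in RAS. The KRM RAS values lay, like those of Gpx3, between Sham library 3 and the other Sham libraries. Slc5a2, the glucose transporter of the early segments (chromosome 7, GRCm38, 128265657 to 128272430, plus strand, overlapping the gene BC017158), had 10.4, 14.5 and 1104 CPM in CD11chiMϕ Sham and 16.6, 9.72, 8.3 and 4.21 CPM in RAS. In CD11cloMϕ Slc5a2 had 9.07, 5.25 and 59.9 CPM in Sham and 0, 0.808, 21.5 and 31.0 CPM in RAS. Its KRM values were 14.8, 10.4, 128 and 10.6 CPM in Sham and 65.0, 36.4 and 39.7 CPM in RAS. The other sodium-coupled and amino acid transporters spanned 0 to 426 CPM, from Slc5a12, a lactate transporter with a mean of 11.3 CPM, to Slc13a3, a dicarboxylate transporter with a mean of 47.6 CPM. The organic anion transporters Slc22a6, Slc22a8 and Slc22a12 had means of 45.1, 29.4 and 38.7 CPM.

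Genes of protein uptake were low outside the Sham libraries numbered 3. Lrp2, which encodes the endocytic receptor megalin, had 8.87, 7.52 and 481 CPM in the CD11chiMϕ Sham libraries and 26.6, 32.8, 5.04 and 1.75 CPM in RAS. CD11cloMϕ gave 2.99, 6.65 and 237 CPM of Lrp2 in Sham and 2.56, 4.5, 8.46 and 10.8 CPM in RAS. KRM gave 5.49, 4.94, 61.7 and 13.3 CPM in Sham and 33.0, 17.9 and 16.9 CPM in RAS, so that every KRM RAS value exceeded Sham libraries 1, 2 and 4. Cubn, the partner receptor cubilin, ranged from 0.214 to 84.6 CPM. Pdzk1, a scaffold under the brush border, ranged from 1.39 to 755 CPM, and Ggt1, the ectoenzyme that splits glutathione, from 0.962 to 361 CPM.

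Hnf4a, the nuclear receptor, was the only transcription factor of the list and had low counts outside the Sham libraries numbered 3. Its CD11chiMϕ values were 5.81, 7.74 and 160 CPM in Sham and 7.82, 6.97, 1.48 and 1.75 CPM in RAS. CD11cloMϕ had 4.64, 4.78 and 53.3 CPM of Hnf4a in Sham and 1.18, 0.577, 6.24 and 6.34 CPM in RAS. KRM had 8.58, 6.01, 39.5 and 7.83 CPM in Sham and 16.8, 20 and 17.1 CPM in RAS. As for Gpx3, the KRM RAS values lay between Sham library 3 and the other Sham libraries.

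The remaining members were enzymes. Gatm, which makes the creatine precursor guanidinoacetate, had 160, 304 and 1588 CPM in CD11chiMϕ Sham and 256, 107, 137 and 145 CPM in RAS. In CD11cloMϕ Gatm had 52.9, 29.4 and 153 CPM in Sham and 42.9, 31.6, 321 and 163 CPM in RAS. In KRM it had 381, 434, 606 and 401 CPM in Sham and 553, 376 and 398 CPM in RAS. Gatm thus differed less between Sham library 3 and the other KRM Sham libraries than most members did, and it was high in KRM of both conditions. Miox, which opens the ring of inositol, had 40.2, 47.5 and 2913 CPM in CD11chiMϕ Sham and 81.5, 125, 28.7 and 25.7 CPM in RAS. CD11cloMϕ had 32.4, 23.1 and 535 CPM of Miox in Sham and 2.89, 12.0, 54.8 and 63.3 CPM in RAS. KRM had 64.3, 51.1, 342 and 49.6 CPM in Sham and 156, 127 and 114 CPM in RAS. The other sugar enzymes, Pck1 and Fbp1 of glucose synthesis and Khk of fructose breakdown, ranged from 1.6 to 1189 CPM.

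Enzymes of acyl and fatty acid metabolism were among the 10 most abundant members. Cyp4b1, a cytochrome P450 that hydroxylates fatty acids, had 68.1, 33.0 and 2759 CPM in CD11chiMϕ Sham and 223, 118, 17.8 and 14.9 CPM in RAS. CD11cloMϕ had 15.5, 23.3 and 1660 CPM of Cyp4b1 in Sham and 5.77, 20.9, 28.0 and 18.8 CPM in RAS, and KRM had 81.9, 73.4, 566 and 100 CPM in Sham and 330, 110 and 99.1 CPM in RAS. The KRM RAS values of Cyp4b1 overlapped Sham library 4 at their lower end. Acsm2, an acyl-CoA synthetase, had 29.4, 41.1 and 2415 CPM in CD11chiMϕ Sham and 141, 97.8, 19.9 and 19.2 CPM in RAS. Its CD11cloMϕ values were 22.0, 18.3 and 849 CPM in Sham and 5.02, 11.5, 50.3 and 67.2 CPM in RAS, and its KRM values 43.6, 46.7, 420 and 55.0 CPM in Sham and 256, 126 and 112 CPM in RAS. Slc27a2, which takes up and activates very long-chain fatty acids, had 50.3, 29.3 and 1329 CPM in CD11chiMϕ Sham and 166, 85.5, 23.9 and 12.7 CPM in RAS. The highest single library for Slc27a2 was CD11cloMϕ Sham library 3, since CD11cloMϕ had 8.76, 22.6 and 1503 CPM in Sham and 8.87, 17.9, 24.7 and 17.8 CPM in RAS, with its other libraries below every KRM library. In KRM it had 60.1, 56.1, 389 and 77.6 CPM in Sham and 263, 95.3 and 80.8 CPM in RAS. Keg1, an acyltransferase of the glycine conjugation family, had 24.1, 31.5 and 958 CPM in CD11chiMϕ Sham, 59.9, 36.9, 13.4 and 12.8 CPM in CD11chiMϕ RAS, 16.8, 16.3 and 334 CPM in CD11cloMϕ Sham and 1.39, 11.5, 38.1 and 38.2 CPM in CD11cloMϕ RAS. KRM had 43.3, 44.3, 234 and 42.6 CPM of Keg1 in Sham and 124, 86.2 and 71.5 CPM in RAS, with each RAS library above Sham libraries 1, 2 and 4. Hpd, of tyrosine breakdown, was the lowest member, with a mean of 1.49 CPM and no count in 7 libraries. Dao, a D-amino acid oxidase, and Hao2, a peroxisomal oxidase, had means of 7.29 and 25.0 CPM, and Ass1, of arginine synthesis, 105 CPM.

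Per transcript length Gpx3 again had the highest level. In the authors' log2(TPM + 1) table, averaged over 20 libraries, Gpx3 was at 9.61, Napsa at 8.36, Kap at 7.78, Gatm at 7.15, Miox at 6.67 and Slc34a1 at 6.22 on the log2 scale. Cubn and Lrp2, both with very long transcripts, were at 0.76 and 1.52. The column of KRM RAS library 1 was left out of this average because its values correlated at 0.09 with the counts of that library, where the other 20 columns gave 0.915 to 0.966.

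Promoter letters are shown for 4 members that shared the rise in the Sham libraries numbered 3 and hold a searched motif, to set the most abundant such genes side by side. Of the 40 members, 34 had a RefSeq promoter window, with 43 windows among them. The following motifs were searched on both strands in the 250 bases before each start: GTTAATNAT (an HNF1 site), CAAAGTCCA (HNF4) and the core promoter motif TATAAA. No member window held the first, which 0.737% of all 32851 windows held, and 1 held the second (Slc3a1), against 0.384% of all windows. TATAAA lay in 7 of the 43 member windows, those of Kap, Miox, Acsm2, Cyp2j5, Cyp2e1, Ggt1 and Slc3a1, against 12.4% of all windows. The first letter of the match lay 31 bases before the start in Kap, 40 in Miox and 28 in Acsm2, and in Cyp2j5, a cytochrome P450 of arachidonic acid metabolism, the match lay on the other strand at 128 bases. The windows below are RefSeq sequence on build GRCm38.p6, written 5′ to 3′ on the strand of the gene, with the TATAAA match (TTTATA for the other strand) in capitals. They lie at chr6:133853668-133853917 (minus strand), chr15:89334223-89334472 (plus), chr7:119554090-119554339 (plus) and chr4:96664120-96664369 (minus).
Kap: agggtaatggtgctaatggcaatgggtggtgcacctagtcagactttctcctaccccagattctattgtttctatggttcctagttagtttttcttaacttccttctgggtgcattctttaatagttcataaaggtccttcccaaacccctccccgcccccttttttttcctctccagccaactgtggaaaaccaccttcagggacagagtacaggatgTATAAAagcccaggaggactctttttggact
Miox: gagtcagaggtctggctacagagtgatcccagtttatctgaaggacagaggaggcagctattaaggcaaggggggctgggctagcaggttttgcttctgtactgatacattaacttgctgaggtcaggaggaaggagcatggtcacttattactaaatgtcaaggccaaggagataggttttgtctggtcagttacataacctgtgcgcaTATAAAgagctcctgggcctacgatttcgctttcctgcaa
Acsm2: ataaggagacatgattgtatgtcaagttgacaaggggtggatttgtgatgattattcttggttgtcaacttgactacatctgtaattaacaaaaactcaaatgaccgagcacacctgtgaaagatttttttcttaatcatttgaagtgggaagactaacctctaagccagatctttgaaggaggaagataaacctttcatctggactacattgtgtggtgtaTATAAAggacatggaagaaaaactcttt
Cyp2j5: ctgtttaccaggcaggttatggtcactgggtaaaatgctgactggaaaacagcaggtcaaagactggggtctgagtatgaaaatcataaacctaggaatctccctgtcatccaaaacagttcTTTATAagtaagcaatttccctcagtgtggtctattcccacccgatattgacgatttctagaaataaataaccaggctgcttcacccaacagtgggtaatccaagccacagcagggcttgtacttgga

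The 3 Sham libraries numbered 3 did not hold the proximal tubule genes in the same proportions. Gpx3 made up 50.7% of the members' counts in CD11chiMϕ Sham library 3 and 46.8% in KRM Sham library 3, but 19.5% in CD11cloMϕ Sham library 3. The ratio of Slc5a2 to Slc7a13 counts was 10.4 in CD11chiMϕ Sham library 3 (9248 to 893 counts) and 9.24 in KRM Sham library 3 (2374 to 257 counts). In CD11cloMϕ Sham library 3 it was 0.258, with 2038 counts of Slc7a13, so the gene of the last segment stood above that of the early segments there. With Napsa left out, enzymes of fatty acid, steroid and xenobiotic metabolism made up 31.4% of the list in CD11cloMϕ Sham library 3, against 14.0% and 15.2% in the CD11chiMϕ and KRM libraries of that number.

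Slc7a13 (chromosome 4, GRCm38, 19818725 to 19842218, plus strand) also divided libraries within groups. It had 4.99, 3.99 and 107 CPM in CD11chiMϕ Sham and 22.2, 15.4, 1.28 and 0.617 CPM in RAS. CD11cloMϕ had 0.309, 4.9 and 232 CPM of Slc7a13 in Sham and 1.07, 2.08, 3.32 and 0.453 CPM in RAS, and KRM had 4.81, 4.72, 13.8 and 13.2 CPM in Sham and 28.7, 4.02 and 5.15 CPM in RAS. Its counts exceeded those of Slc5a2 in CD11chiMϕ RAS libraries 1 and 2 (ratios of Slc5a2 to Slc7a13 of 0.748 and 0.632) and not in RAS libraries 3 and 4 (6.46 and 6.83). In KRM RAS the ratio was 2.27 in library 1, 9.07 in library 2 and 7.72 in library 3. CD11cloMϕ RAS library 1 had 0 counts of Slc5a2 and 10 of Slc7a13, and a count of 0 allows up to 3 counts, so little can be read from that library.

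**Figure D3:**
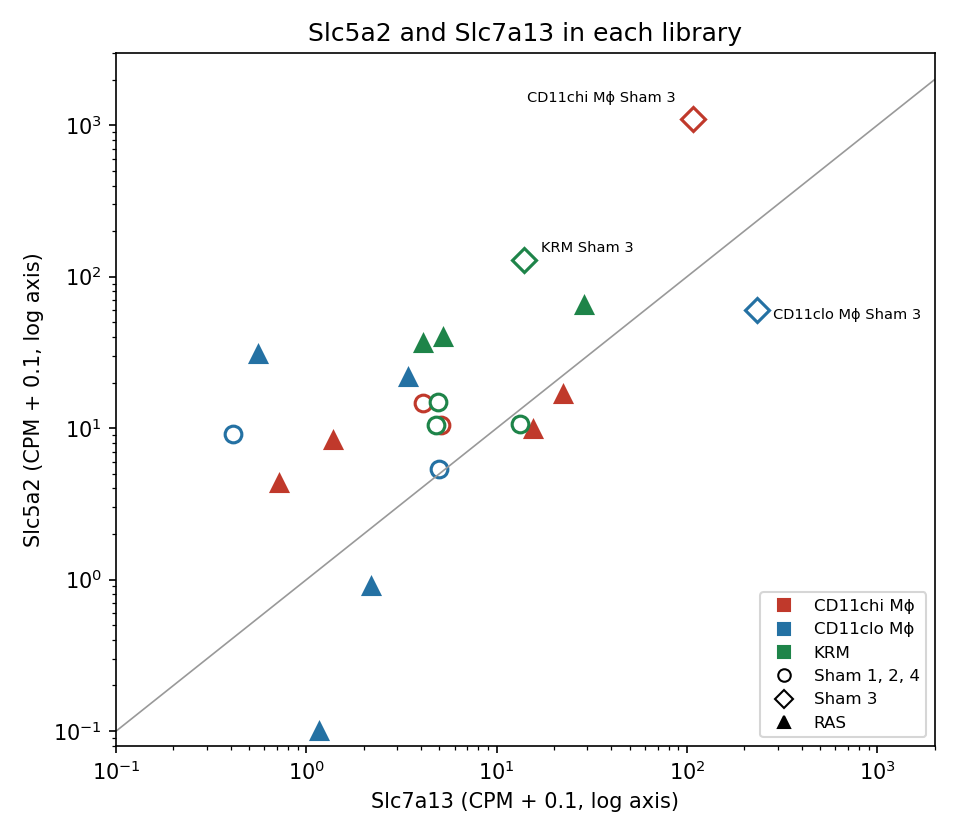
Slc5a2, of the early proximal tubule segments, against Slc7a13, of the last segment, in each library (CPM + 0.1, log axes), with the grey line marking equal levels. CD11chiMϕ and KRM Sham library 3 lie on the Slc5a2 side at ratios of 10.4 and 9.24, and CD11cloMϕ Sham library 3 lies on the Slc7a13 side at 0.258.

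Between RAS and Sham, no proximal tubule gene passed the test in either monocyte-derived population. In CD11chiMϕ 39 members were tested and 0 passed at an adjusted p under 0.05 (edgeR quasi-likelihood, adjusted over all genes tested), and the background was also 0.0%. The median log2 difference of RAS minus Sham over the members was −3.64, against −0.09 over all genes, and 26 members had an unadjusted p under 0.05, against 9.79% of all genes. DESeq2 called 1 member, against 1.48% of all genes. Gpx3 differed by −4.67 (SE 1.47, adjusted p = 0.508 in edgeR) and Slc34a1 by −3.93 (SE 1.48, adjusted p = 0.508 in edgeR), with the 3 Sham values spread as wide as given above. Without Sham library 3 the members' median became 0.62, again with 0 called against a background of 0.0%, and 1 unadjusted p under 0.05. The summed level of the list in RAS over Sham was 0.112 with all libraries and 1.27 without Sham library 3.

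In CD11cloMϕ the comparison took the same course. Of 39 members tested 0 passed in edgeR, with a background of 0.0%, and 17 had an unadjusted p under 0.05, against 8.96% of all genes, while DESeq2 also called 0 members, against 0.87% of all genes. The median log2 difference was −2.83, and 0.40 without Sham library 3, where 0 of 39 passed and 1 had an unadjusted p under 0.05. Gpx3 differed by −0.98 (SE 1.26, adjusted p = 0.817 in edgeR) and Napsa by −0.77 (SE 0.401, adjusted p = 0.587 in edgeR). For Napsa the CD11cloMϕ values were 659, 627 and 694 CPM in Sham and 566, 501, 131 and 313 CPM in RAS, so the groups did not overlap although the test was not passed. The lowest value came from RAS library 3, which stood apart in its macrophage markers. Khk also lay lower in every RAS library, where 4.86% of all genes lay lower without overlap. The summed fold was 0.242, and 1.17 without Sham library 3.

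In KRM the number of members called depended on the Sham library numbered 3, and on other libraries as given below. With all 7 libraries 40 members were tested and 1, Ugt2b37, was higher in RAS, against 7.77% of all genes called higher, 1.94% called lower and 9.7% called in either direction. The members' median log2 difference was 0.11, against 0.02 over all genes, and 2 members had an unadjusted p under 0.05, against 34.0% of all genes. DESeq2 called 2 members, 1 in each direction, against 24.6% of all genes. Without Sham library 3, 19 of 40 members were higher in RAS, against 9.06% of all genes, none was lower, and the median rose to 1.18. That library was set apart for its high values of these same genes, so leaving it out raises RAS over Sham by construction, and the calls and p-values without it are a description. The summed level in RAS over Sham was 0.974 with all libraries and 2.11 without that library.

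Ugt2b37 encodes a glucuronosyltransferase, which couples glucuronic acid to steroids and foreign compounds (chromosome 5, GRCm38, 87240493 to 87254804, minus strand). In KRM it had 1.14, 2.04, 3.76 and 4.18 CPM in Sham and 23.3, 46.0 and 46.9 CPM in RAS. The groups did not overlap, and the log2 difference was 3.73 (SE 0.448, adjusted p = 0.0138 in edgeR). Among all genes 18.1% lay higher in every KRM RAS library than in any Sham library, and Ugt2b37 was the 1 member of 40 to do so. The call did not hold without KRM Sham library 1 or 2 or without KRM RAS library 2 or 3, where the adjusted p in edgeR was 0.0516 to 0.0584 and the log2 difference 3.50 to 3.61, and where edgeR called 0.204% to 0.259% of all genes. Nor did it hold in a fit over all 6 groups, where the log2 difference was 3.63 (SE 1.54, adjusted p = 0.143 in edgeR) and 7.85% of all genes were called. Its other values were 0, 0.569 and 35.6 CPM in CD11chiMϕ Sham, 16.9, 9.72, 3.56 and 1.64 CPM in CD11chiMϕ RAS, 0.206, 0.117 and 62.9 CPM in CD11cloMϕ Sham, and 2.46, 1.85, 1.81 and 2.49 CPM in CD11cloMϕ RAS. In both monocyte-derived populations every RAS library thus lay above Sham libraries 1 and 2 and below Sham library 3. Ugt2b37 belongs to a family of near-identical genes whose reads the counting may have divided unevenly, so its level is uncertain.

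KRM Sham library 3 was set apart for high values of the members, so the values without it are a description. With that library left out, the genes called higher in RAS had various roles. They were the transporters Slc34a1, Slc5a2, Slc5a12, Slc4a4, Slc13a1 and Slc3a1, the uptake and brush border genes Cubn, Pdzk1 and Ggt1, and Hnf4a, along with Gpx3 and Ttc36. The enzymes were Miox, Keg1, Acsm1, Acsm2, Cyp2j5, Akr1c21 and Ugt2b37. Slc4a4, the basolateral bicarbonate cotransporter, was higher by 2.39 on the log2 scale (SE 0.251, adjusted p = 0.0132 in edgeR), Ggt1 by 2.02 (SE 0.208, adjusted p = 0.0132 in edgeR) and Pdzk1 by 1.72 (SE 0.148, adjusted p = 0.0132 in edgeR). Slc5a2 was higher by 1.87 (SE 0.285, adjusted p = 0.0246 in edgeR), Slc34a1 by 1.54 (SE 0.293, adjusted p = 0.0306 in edgeR) and Gpx3 by 1.24 (SE 0.187, adjusted p = 0.0244 in edgeR). Hnf4a was higher by 1.16 (SE 0.24, adjusted p = 0.0333 in edgeR). With Sham library 3 included, Gpx3 differed by −0.204 (adjusted p = 0.873 in edgeR) and Slc34a1 by 0.117 (adjusted p = 0.929 in edgeR). Without that library 31 of the 40 members lay higher in every KRM RAS library than in Sham libraries 1, 2 and 4, against 27.4% of all genes. The other 9 were Napsa, Slc13a3, Slc7a13, Slc22a12, Pck1, Khk, Hpd, Gatm and Cyp4b1.

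The number called rested on few libraries. Beside Sham library 3, leaving out KRM Sham library 1, 2 or 4 or RAS library 3 left 0 members called, and edgeR then called 0.0% of all genes too. Leaving out RAS library 2 left 3 members called, against 0.259% of all genes. Leaving out RAS library 1 gave 25 higher and 2 lower, where 54.7% of all genes were called and 31.8% were called higher. The members' median log2 difference stayed between 0.88 and 1.33 in these 6 fits.

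Folds of the group means ranged widely among the members. Without Sham library 3 they were 15.8 for Ugt2b37, 5.63 for Slc4a4, 4.81 for Slc5a12 and 4.47 for Cubn at the upper end. At the lower end they were 1.02 for Pck1, the enzyme that commits precursors to glucose synthesis, 0.796 for Hpd, 0.749 for Napsa and 0.639 for Slc13a3. With all 4 Sham libraries the range ran from 0.446 for Pck1 to 13.9 for Ugt2b37.

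**Figure D4:**
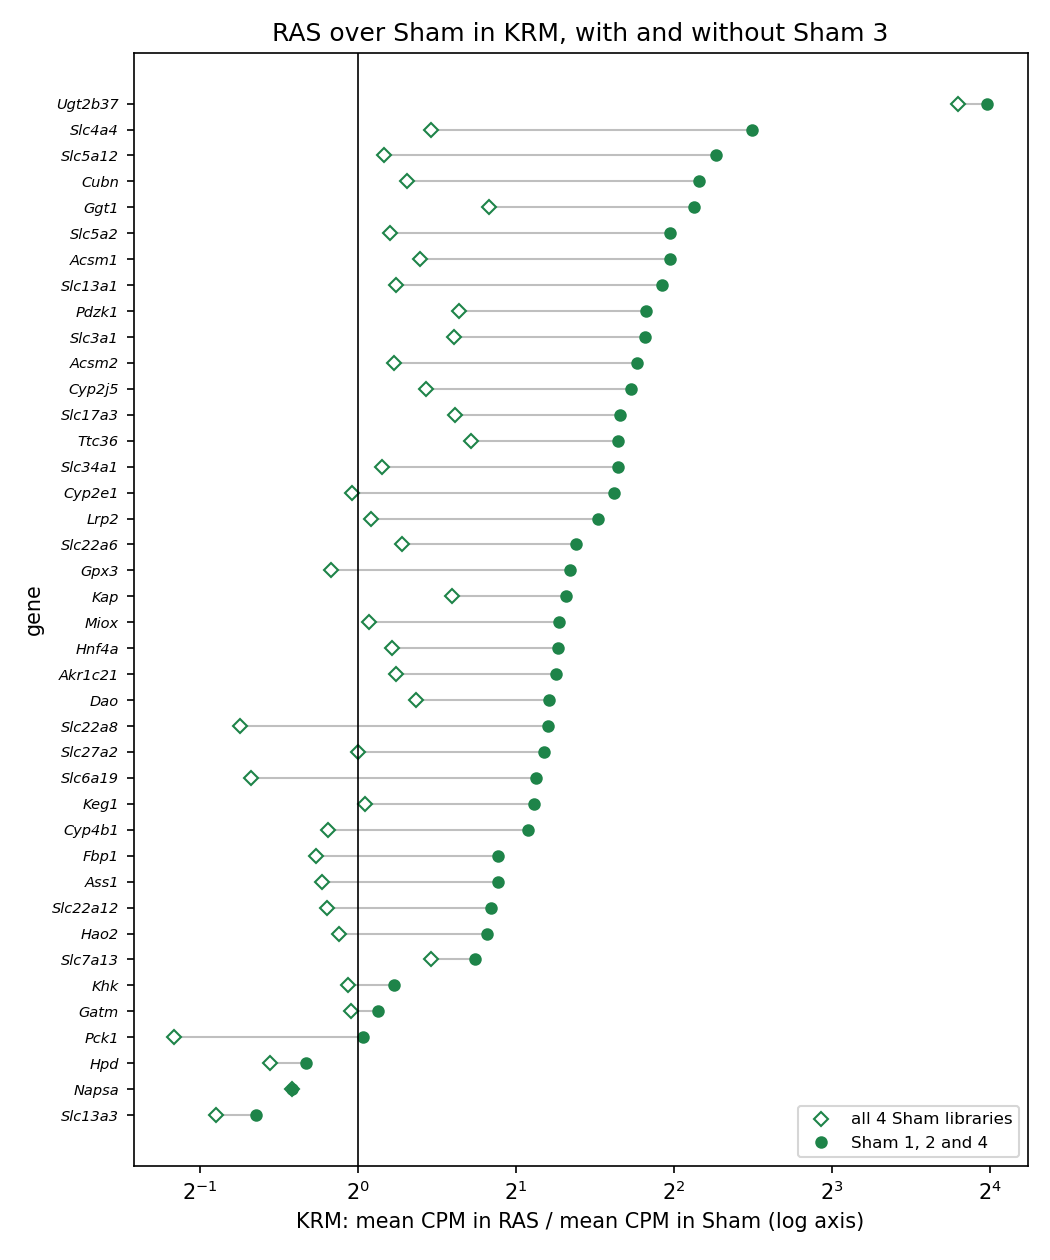
Fold of mean CPM in KRM from RAS over KRM from Sham kidneys for each of the 40 genes (log axis), as diamonds with all 4 Sham libraries and as circles with Sham libraries 1, 2 and 4. Leaving out Sham library 3 moves most genes from near 1 to above it, and Ugt2b37 is highest either way at 13.9 and 15.8.

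Genes of other tubule segments had high sums in KRM RAS libraries 2 and 3, in other proportions among the libraries than the proximal tubule genes. The 20 loop and distal nephron genes, led by Umod, Slc12a1 and Egf, summed to 169, 6287 and 4660 CPM in KRM RAS libraries 1, 2 and 3. In KRM Sham they summed to 330 CPM in library 3 and to 16.1 to 17.6 CPM in the others. Slc12a1, the salt transporter of the thick ascending limb, had 0, 1.18, 46.7 and 1.15 CPM in KRM Sham libraries 1 to 4 and 24.4, 815 and 587 CPM in the KRM RAS libraries, so that RAS library 1 lay below Sham library 3. With all libraries 6 of 12 tested genes of this list were higher in RAS, against 7.77% of all genes, and without Sham library 3 this was 9 of 12, against 9.06%. Umod, Slc12a1 and Egf did not pass with all libraries (adjusted p = 0.0827, 0.0897 and 0.17 in edgeR) and passed only without Sham library 3. The 39 proximal tubule genes without Napsa were 34.5 times the loop and distal sum in KRM RAS library 1, 0.649 times in library 2 and 0.776 times in library 3, whereas the other 18 libraries gave 3.49 to 139 times. KRM RAS library 1, which had the highest proximal tubule sum of the 3, thus had the lowest loop and distal sum. Spp1, osteopontin, had 169, 8641 and 5878 CPM and Clu, clusterin, 31.2, 2755 and 1958 CPM in the KRM RAS libraries, both from a list of 10 tubule injury genes that summed to 422 to 12956 CPM there and to 281 to 502 CPM in KRM Sham. The 13 general tubule epithelium genes summed to 268 to 3767 CPM in KRM RAS and to 61.3 to 376 CPM in KRM Sham. Endothelial genes (10 genes) summed to 34.5 to 273 CPM in KRM RAS and 11 to 25 CPM in KRM Sham, and stromal genes (11 genes) to 50.7 to 781 CPM and 21.5 to 42.3 CPM. With all libraries the genes called higher in RAS were 5 of 6 tested in the injury list, 6 of 10 in the general epithelium list, 4 of 8 in the endothelial list and 4 of 6 in the stromal list, again against 7.77% of all genes. Without Sham library 3 these were 5 of 6, 10 of 10, 3 of 7 and 4 of 6, against 9.06%. T and NK cell genes were higher for 9 of 10 tested, and for 6 of 10 without Sham library 3, and summed to 462 CPM in KRM RAS library 1, against 68.9 and 69.0 CPM in the other RAS libraries and 79.4 to 111 CPM in KRM Sham. The remaining gene, Cd4, was lower by −1.46 on the log2 scale (adjusted p = 0.0414 in edgeR, and 0.0526 without Sham library 3). Erythrocyte genes were higher for 3 of 3 tested, and for 2 of 3 without Sham library 3, and summed to 269 to 838 CPM in KRM RAS and 88.7 to 198 CPM in KRM Sham. Of 10 dissociation stress genes 3 were lower, against 1.94% of all genes, and the list summed to 23284 to 28516 CPM in KRM RAS and 32983 to 47139 CPM in KRM Sham. Some genes near 0 in KRM Sham passed the low-count filter only through the RAS libraries, such as Clu (0 to 0.731 CPM in Sham) and Nkg7 (0.229 to 0.966 CPM). The counts of called genes in these lists are therefore a description. The part of these lists, and of the lower macrophage marker sum in KRM RAS libraries 2 and 3, in the differences between KRM RAS and Sham was not tested.

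**Figure D5:**
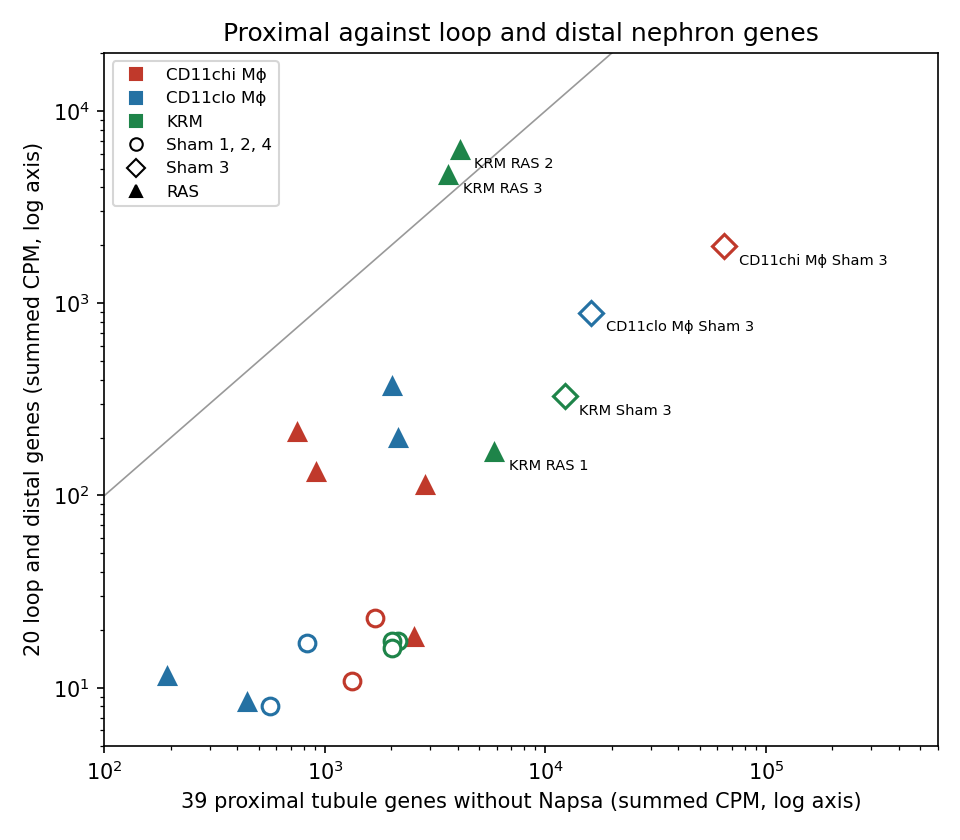
Summed level of the 39 proximal tubule genes without Napsa against that of 20 loop and distal nephron genes in each library (CPM, log axes), with the grey line marking equal sums. KRM RAS libraries 2 and 3 lie above the line, at proximal over distal ratios of 0.649 and 0.776, and all other libraries have more proximal tubule than loop and distal counts.

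A further 65 proximal tubule genes outside the list, among them Tmem27 and Sord, were counted in the same way. In KRM 59 were tested and 3 were higher in RAS with all libraries, where 7.77% of all genes were higher. Without Sham library 3, which was set apart for high proximal tubule genes, 25 of 58 were higher, against 9.06% of all genes, and none was lower in either case. They share libraries with the 40 members and do not add independent evidence.

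The test of the difference between responses called no member. The RAS minus Sham difference in KRM exceeded that in CD11chiMϕ by a median of 3.57 on the log2 scale over 40 members, with 0 called in edgeR against a background of 0.0%, 1 called in DESeq2 against 8.64% of all genes, and 21 at an unadjusted p under 0.05, against 21.2% of all genes. Gpx3 gave 4.36 (SE 1.7, adjusted p = 0.167 in edgeR) and Slc34a1 3.94 (SE 1.77, adjusted p = 0.221 in edgeR). Against CD11cloMϕ the median was 2.92, with 0 called in edgeR (background 0.245%) and in DESeq2 (background 10.2%) and 12 at an unadjusted p under 0.05, against 23.7% of all genes. Gpx3 gave 0.61 (SE 1.62, adjusted p = 0.852 in edgeR) and Napsa 0.21 (SE 0.509, adjusted p = 0.833 in edgeR). Without the Sham libraries numbered 3 the medians were 0.60 and 0.72, with 0 called in each. A response called in KRM was therefore not shown to differ from that of the other populations.

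Among Sham libraries, Napsa was the member that separated the populations with all libraries included. It had 611, 404 and 319 CPM in CD11chiMϕ Sham, 659, 627 and 694 CPM in CD11cloMϕ Sham, and 128, 108, 115 and 105 CPM in KRM Sham. No KRM value reached those of the other populations. Among all genes 11.8% lay lower without overlap against CD11chiMϕ and 23.6% against CD11cloMϕ. KRM was lower than CD11chiMϕ by −2.0 (log2, SE 0.233, adjusted p = 0.00627 in edgeR), where 4.13% of all genes were lower and 5.13% were called in either direction, and lower than CD11cloMϕ by −2.55 (SE 0.13, adjusted p = 4.87e-06 in edgeR), where 22.4% were lower and 41.9% were called in either direction. With libraries of the same number treated as pairs, 0 members were called against CD11chiMϕ, where 0.719% of all genes were called and Napsa was still lower by −1.92 (SE 0.259, adjusted p = 0.0568 in edgeR). Paired in this way, 6 members were called against CD11cloMϕ, against 34.5% of all genes, with Napsa lower by −2.51 (SE 0.153, adjusted p = 7.17e-05 in edgeR). Gatm was the 1 member higher in KRM than in CD11cloMϕ (log2 difference 2.54, SE 0.501, adjusted p = 0.00438 in edgeR), where 19.5% of all genes were higher. In that comparison 2 members had an unadjusted p under 0.05, against 49.9% of all genes. With all Sham libraries the members' median log2 difference of KRM was −2.45 against CD11chiMϕ and −0.91 against CD11cloMϕ. The difference was above 0 for 0 and 7 of the 40 members.

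Without the Sham libraries numbered 3, more members were higher in KRM than in CD11cloMϕ. Then 24 of 40 were higher, against 22.6% of all genes, and Napsa was lower by −2.51 on the log2 scale, where 24.1% of all genes were lower. Gatm was higher by 3.28 (SE 0.242, adjusted p = 2.28e-06 in edgeR), and Slc13a3, Kap and Cyp4b1 were higher by 3.17, 2.69 and 2.12 on the log2 scale. The count was 22 to 24 higher when a further library was left out, where 17.4% to 24.0% of all genes were higher. The libraries left out were set apart for high values of these same genes, so the calls without them are a description. Against CD11chiMϕ 4 members were higher without those libraries, Kap by 1.07, Slc13a3 by 0.93, Gatm by 0.87 and Keg1 by 0.70 on the log2 scale, against 3.54% of all genes, and Napsa was lower by −2.11, where 8.56% were lower. The count against CD11chiMϕ was 1 to 5 higher when a further library was left out, where 1.16% to 6.64% of all genes were higher. These 2 comparisons share the KRM Sham libraries. In the libraries compared, KRM Sham also had more summed macrophage marker counts, 91246 to 114020 CPM against 72089 and 75561 CPM in CD11chiMϕ and 62229 and 58202 CPM in CD11cloMϕ. B and plasma cell genes summed to 1290 to 1556 CPM in KRM, 845 and 2089 CPM in CD11chiMϕ and 243 and 326 CPM in CD11cloMϕ. Neutrophil genes summed to 106 to 110 CPM, 146 and 161 CPM, and 798 and 383 CPM in these populations. The part of these lists in the differences was not tested.

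Among RAS libraries KRM had more of several members and less Napsa. Napsa had 506, 728, 1025 and 1000 CPM in CD11chiMϕ RAS and 123, 74.4 and 58.4 CPM in KRM RAS, a log2 difference of −3.56 (SE 0.466, adjusted p = 0.0134 in edgeR), where 5.07% of all genes were lower. Of 39 members tested, 6 were higher in KRM than in CD11chiMϕ, against 4.17% of all genes higher and 9.23% called in either direction, and 16 had an unadjusted p under 0.05, against 29.8% of all genes. Slc5a12 was higher by 2.15 (SE 0.42, adjusted p = 0.0303 in edgeR), Slc5a2 by 2.09 (SE 0.381, adjusted p = 0.0276 in edgeR), Pdzk1 by 1.68 (SE 0.354, adjusted p = 0.0351 in edgeR) and Gatm by 1.26 (SE 0.266, adjusted p = 0.0354 in edgeR), and the remaining 2 were Gpx3 and Slc6a19, a neutral amino acid transporter. Against CD11cloMϕ 9 of 39 were higher and Napsa was lower, where 3.28% of all genes were higher, 5.89% were lower and 9.17% were called in either direction. Here 22 members had an unadjusted p under 0.05, against 32.9% of all genes. Ugt2b37 was higher by 3.96 (SE 0.333, adjusted p = 0.00832 in edgeR), Kap by 3.28 (SE 0.58, adjusted p = 0.0268 in edgeR), Ggt1 by 3.27 (SE 0.675, adjusted p = 0.0351 in edgeR), Cyp4b1 by 3.04 (SE 0.623, adjusted p = 0.0348 in edgeR) and Slc27a2 by 2.83 (SE 0.508, adjusted p = 0.0276 in edgeR). The other 4 were Hao2, Cyp2e1, Slc22a6 and Slc13a1. Without KRM RAS library 2 or 3, 0 members were called in either comparison, and edgeR then called 0.103% and 0.177% of all genes against CD11chiMϕ and 0.0% against CD11cloMϕ. When any 1 library was left out, the log2 difference ranged from −3.93 to −3.33 for Napsa and from 1.77 to 2.38 for Slc5a2 against CD11chiMϕ, and from 3.78 to 4.21 for Ugt2b37 against CD11cloMϕ. The members called against CD11chiMϕ fell to 2 without CD11chiMϕ RAS library 2 (1.56% of all genes called) and to 1 without library 3 or 4 (0.351% and 0.381%), and rose to 13 without library 1 (17.6%). Against CD11cloMϕ they fell to 1 without CD11cloMϕ RAS library 2 or 4, where 0.346% and 0.686% of all genes were called. DESeq2 called 14 members against CD11chiMϕ and 21 against CD11cloMϕ, where it called 20.8% and 24.4% of all genes. A fit over all 6 groups called 1 member in each, where it called 14.7% and 12.7% of all genes, and Slc5a2 then had an adjusted p of 0.345 and Ugt2b37 of 0.0999 in edgeR. Without overlap, 19 members lay higher in KRM RAS than in CD11chiMϕ RAS, against 15.3% of all genes, and 35 higher than in CD11cloMϕ RAS, against 22.2%. The comparisons share the KRM RAS libraries. Loop and distal nephron genes were higher in KRM RAS for 10 of 16 tested against CD11chiMϕ, where 4.17% of all genes were higher, and for 4 of 17 tested against CD11cloMϕ, where 3.28% were higher. General tubule epithelium genes summed to 268 to 3767 CPM in KRM RAS, 151 to 232 CPM in CD11chiMϕ RAS and 20.9 to 202 CPM in CD11cloMϕ RAS. Neutrophil genes summed to 75.3 to 135, 10.6 to 251 and 688 to 2847 CPM in these groups. The part of these lists in the members' differences was not tested.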

How the data were processed

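The authors aligned paired-end reads (SMART-Seq v4 Ultra Low-Input kit, Nextera XT libraries) to mm10 with the OmicSoft OSA aligner and Ensembl R83 genes, and deposited estimated counts per gene. Their second deposited table holds log2(TPM + 1) values, quantile normalized, in which the KRM RAS library 1 column did not match the counts. No library was dropped or imputed. Lines with the same symbol were summed (37620 lines to 34236 symbols) and rounded; 16 of the 40 members had values that were not whole. Level is CPM of the library total. Counts were tested with edgeR 4.0.16 (R 4.3.3; TMM; filterByExpr, min.count 10, min.total.count 15; quasi-likelihood, two-sided; Benjamini-Hochberg over all genes tested) on the libraries of each comparison, called at an adjusted p under 0.05. SE is the log2 difference over the square root of F. Alternatives were DESeq2 1.42.0, the log2 table fitted with limma 3.58.1, other scalings, no low-count filter, 1 fit over all 6 groups, a replicate block and leaving out libraries.

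Same-numbered Sham libraries deviated together between populations (correlations 0.206 to 0.68), and an alternative fit treated them as pairs, although the sources do not say what a number marks. The deviations were taken from group means that include number 3. With number 3 left out the correlations were −0.196, 0.171 and 0.07 over 13336 genes. Between Sham and RAS, CD11chiMϕ Sham library 1 also reached 0.398 with CD11cloMϕ RAS library 1 and with KRM RAS library 1. These correlations therefore cannot show that the numbers pair libraries. Members with values in every library are the 10 with the highest mean CPM, which include Slc34a1, with Hnf4a, Lrp2, Slc5a2 and Slc7a13; Ugt2b37 was added after its values were seen, as the 1 member called between RAS and Sham. Members with fold change and adjusted p are the 5 called with the smallest p, or the 2 most abundant where none was called; other members named with a fold or test were chosen after their values were seen. Promoters are of the 4 most abundant members holding a motif. The members and lists were chosen with earlier results of these data known. Overlapping genes (BC017158 with Slc5a2, Hnf4aos with Hnf4a, Gm15396 with Napsa) and close paralogs (Ugt2b37, Cyp2j5, Acsm1, Acsm2, Keg1, Akr1c21) make those levels uncertain.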

Additional observations from a re-analysis of the deposited data

Results flagged for a closer look

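KRM Sham library 3 stood far from the other 3 KRM Sham libraries for 12 of the 15 values tested in that group, where chance sets about 1 in 20 such values apart. In the other 2 groups of 4 libraries, CD11chiMϕ RAS and CD11cloMϕ RAS, none of the same values stood apart in this way, 45 being tested in all. The summed level of the 40 proximal tubule genes was 12350 CPM there. The single genes were Gpx3 at 5781 CPM, Slc34a1 at 910 CPM, Cyp4b1 at 566 CPM, Acsm2 at 420 CPM, Kap at 393 CPM, Slc27a2 at 389 CPM, Miox at 342 CPM, Keg1 at 234 CPM, Slc5a2 at 128 CPM, Lrp2 at 61.7 CPM and Hnf4a at 39.5 CPM, each far above the other KRM Sham libraries. This library was already set apart for high values of these genes, whose values rise together, so these values restate 1 observation and are no test of it.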

How the results depend on the processing

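Without the Sham libraries numbered 3 the members called were 19 in KRM RAS against Sham, 5 and 25 in Sham KRM against CD11chiMϕ and CD11cloMϕ, and the summed RAS over Sham folds were 1.27, 1.17 and 2.11 in CD11chiMϕ, CD11cloMϕ and KRM. Slc34a1 in CD11chiMϕ turned to 0.62 and Gpx3 in CD11cloMϕ to 1.13 (log2). Group medians gave folds of 1.24 and 1.03 in the monocyte-derived populations and 1.89 in KRM. With a fold above 2 and an unadjusted p under 0.05 the counts were 25 in CD11chiMϕ RAS against Sham, 17 in CD11cloMϕ, 16 and 22 in RAS KRM against CD11chiMϕ and CD11cloMϕ, and 21 and 12 for the differences between responses, against 8.07%, 4.37%, 20.8%, 20.3%, 18.9% and 16.4% of all genes. DESeq2 gave 1 in CD11chiMϕ, 2 in KRM, 14 and 21 in the RAS comparisons and 1 for the response against CD11chiMϕ, against 1.48%, 24.6%, 20.8%, 24.4% and 8.64%. A fit over all 6 groups gave 0 in KRM and 1 in each RAS comparison, against 7.85%, 14.7% and 12.7%. limma gave 2 in KRM, against 19.6% (4 without the KRM RAS library 1 column, against 55.7%), and 2 and 4 in the RAS comparisons, against 4.71% and 6.11%. These RAS comparison counts include that column, without which limma called 19.3% and 28.4% of all genes. With the replicate block the counts were 0 and 6 in the Sham comparisons, 7 and 25 without the libraries numbered 3 (15.3% and 45.0% of all genes), and 0 and 5 in the RAS comparisons (0.764% and 8.48%), where not every same-number correlation was over 0.1 (0.076 to 0.474). The block changed no other count beyond 1.5 times.

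Leaving out 1 library gave 0 called in each fit of CD11chiMϕ and CD11cloMϕ, 0 to 19 in KRM, 1 to 3 and 2 to 15 in the Sham comparisons, 0 to 13 in each RAS comparison and 0 to 1 for each response. The summed folds ranged from 0.0769 to 1.27, 0.172 to 1.17 and 0.823 to 2.11. Log2 values that turned sign were Slc34a1 in CD11chiMϕ (−4.48 to 0.62), Gpx3 in CD11cloMϕ (−1.59 to 1.13), and in the responses Gpx3 (−0.10 to 5.83 and −1.34 to 2.11), Slc34a1 (−0.54 to 5.39) and Napsa (−0.17 to 0.43). Chosen after seeing the data, leaving out 1 library beside those numbered 3 gave 0 to 27 in KRM, 2 to 6 and 23 to 25 in the Sham comparisons; where 1 library was left in a group it was assumed to vary like the other group. The cause of these changes was not tested beyond the libraries left out. The depth limits members near 1 CPM, such as Hpd.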
